A study of Mus musculus with 16 samples.

Results

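The mRNAs of 8 nonsense-mediated decay (NMD) factors were followed in mouse embryonic stem cells (ESCs) that were depleted of RAM, the activator of the mRNA cap methyltransferase RNMT. The factors are Upf1, Upf2, Upf3a, Upf3b, Smg1, Smg5, Smg6 and Smg9. They were chosen by name as part of the NMD machinery, and each was matched by its gene identifier to 1 of the 46983 genes of the count table. All 8 were among the 12805 genes tested, for which at least 1 CPM (counts scaled to a common library total) in at least 10 of the 16 libraries was required. The cells were 46C ESCs, a single line derived from 129Ola mice that carries a GFP reporter of Sox1, and they were grown with leukaemia inhibitory factor. They were transfected for 48 hr with siRNA against RAM or with non-targeting siRNA as control, at an amount labelled as 70 pM whose unit is in doubt, so that depletion rests on a single RAM siRNA product in a single line. All cultures were given cycloheximide for 10 min before lysis. RNA was sequenced from a portion of the cytoplasmic extract kept as input and from pooled sucrose gradient fractions 17 to 22, the polysomes. There were 4 replicates of each of the 4 groups, input control, input RAM siRNA, polysome control and polysome RAM siRNA.

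NMD removes mRNAs on which translation ends at a stop codon that is read as premature, and it also sets the level of many normal mRNAs. The helicase Upf1 binds terminating ribosomes and long 3′ untranslated regions, Upf2 and the Upf3 proteins link it to the exon junction complexes that splicing leaves on mRNA, and the kinase Smg1, held in check by Smg8 and Smg9, phosphorylates it. Phosphorylated Upf1 then recruits Smg6, an endonuclease that cuts the mRNA, and Smg5, which helps to bring in deadenylation and decapping enzymes and returns Upf1 to its unphosphorylated form. NMD needs translation, the mRNAs of several of its factors are themselves known NMD targets, and in ESCs the pathway is known to be needed for differentiation.

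Libraries held 16647523 to 20147833 counts in genes, and CPM below are scaled by the trimmed mean of M values (TMM) across the 16 libraries. Ramac, which encodes RAM, was counted 201, 202, 197 and 206 times in the input control libraries and 57, 46, 58 and 56 times after RAM siRNA, a log2 change of -1.84 (SE 0.11, adjusted p = 7.24e-06, edgeR). In polysomes it was counted 122, 130, 156 and 256 times in control and 16, 5, 45 and 44 times after RAM siRNA, so the siRNA label held in every library. Of 6 ESC markers, all were above a mean of 1 CPM in each group, with summed levels of 1838 to 2099 CPM in input control and 1656 to 1846 CPM in input RAM siRNA, while 0 of 3 trophectoderm, 1 of 3 mesoderm, 2 to 3 of 4 primitive endoderm and 1 to 2 of 4 fibroblast markers reached that mean, and none was at 0 in a whole group. Summed neural markers, 5 of 5 above 1 CPM, ran from 74.97 to 85.59 CPM in input control and from 81.25 to 94.23 CPM in input RAM siRNA, with Nes going from a mean of 27.7 to 37.3 CPM and Pax6 from 12.4 to 8.79 CPM. The part of these marker shifts in the results was not tested. Polysome libraries varied more than input libraries. In the polysomes of both cell states, replicate 2 stood apart from replicates 3 and 4. Its gene deviations from the group mean correlated with theirs at -0.811 and -0.802 in RAM siRNA cells and at -0.656 and -0.778 in control cells, over genes measured in the same libraries (deviations from a mean of 4 are negatively related by construction). In control polysomes replicate 1 went with replicate 2 (0.551) and against replicates 3 and 4 (-0.556 and -0.703). In RAM siRNA polysomes replicate 1 correlated with replicates 2, 3 and 4 at 0.189, -0.136 and -0.557. Replicate 2 was thus not the only library to stand apart. Values without the RAM siRNA polysome library of replicate 2, and with replicates 1, 3 and 4 alone in all groups, are given beside the results that rest on replicate 2.

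The genes differ widely in length. On mouse build GRCm38 (GENCODE M21), Upf1 (ENSMUSG00000058301, minus strand) spans chr8:70331525-70353278 with 24 exons, and Upf2 (ENSMUSG00000043241, plus strand) spans chr2:5951469-6056703 with 22. Upf3a (ENSMUSG00000038398, plus strand) lies at chr8:13785615-13799193 with 9 exons and its paralogue Upf3b (ENSMUSG00000036572, minus strand) at chrX:37091678-37110322 with 10. Smg1 (ENSMUSG00000030655, minus strand) spans chr7:118131308-118243670 with 63 exons and has a main transcript of 15557 bases, 10977 of them coding, a coding length at or above that of 99.5% of the 12125 protein-coding genes tested. The remaining genes are Smg5 (ENSMUSG00000001415, plus strand, chr3:88336260-88362338, 22 exons), Smg6 (ENSMUSG00000038290, plus strand, chr11:74925823-75164448, 19 exons) and Smg9 (ENSMUSG00000002210, plus strand, chr7:24399619-24422778, 14 exons). Coding length was 3375 bases for Upf1, 3810 for Upf2, 3054 for Smg5 and 4257 for Smg6. It was 1269 for Upf3a, 1419 for Upf3b and 1563 for Smg9, close to the median of 1407 over the genes tested. The annotation lists a transcript of the NMD biotype for 3 of the 8 genes, Smg1, Smg5 and Smg6, against 28.5% of the genes tested, and an upstream ATG in the 5′ untranslated region of 4 of 8, Upf2, Smg1, Smg5 and Smg9, against 50.9%.

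Since Upf3a and Upf3b encode paralogous proteins and moved differently below, their main transcripts were searched for identical stretches that could let a read be counted for either. The longest shared run was 15 bases, in both cases within the coding sequence, shown in capitals with 7 flanking bases on each side (GENCODE M21 transcripts, coding strand, 5′ to 3′, coding bases 300 to 328 of Upf3a and 255 to 283 of Upf3b).
Upf3a: ggacctcAGCCTTTATCCTCATgtctact
Upf3b: tgatactAGCCTTTATCCTCATatgtatg
The longest run shared by any pair among the 8 main transcripts was 22 bases, between the 3′ untranslated regions of Upf3a and Smg6, shorter than the sequenced reads. Exons of the opposite strand overlap those of Upf1 over 68 bases (Cers1, 70 to 356 counts per library) and those of Smg6 over 126 bases (Srr, 11 to 29 counts), and as the counting is not stated to use strand, reads there cannot be assigned with certainty. Copies of these genes elsewhere in the genome were not examined.

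Per length, Smg5 was the most abundant of the 8 mRNAs in the input of control cells. Its level was 70.3 ± 3.42 CPM per kb of main transcript (SD, n = 4), and its lowest library lay above the highest library of every other factor. Upf1 followed at 18.0 ± 0.970, Upf3a at 16.7 ± 1.73, Smg1 at 13.3 ± 1.95, Upf3b at 11.6 ± 0.940 and Upf2 at 9.88 ± 0.899 CPM per kb, and among these 5 the libraries of each neighbouring pair overlapped. Smg6 at 7.13 ± 0.490 and Smg9 at 4.27 ± 0.276 CPM per kb came last, each clear of its neighbours. When the union of all annotated exons was used as the length instead, Upf3a fell from place 3 to place 6, as its annotation holds 2 retained-intron transcripts, and Smg5 stayed at the top with 44.9 CPM per kb. The 8 genes together held 13307 to 15293 counts in an input control library, of which Smg5 made up 38.2% to 42.9%.

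**Figure D1:**
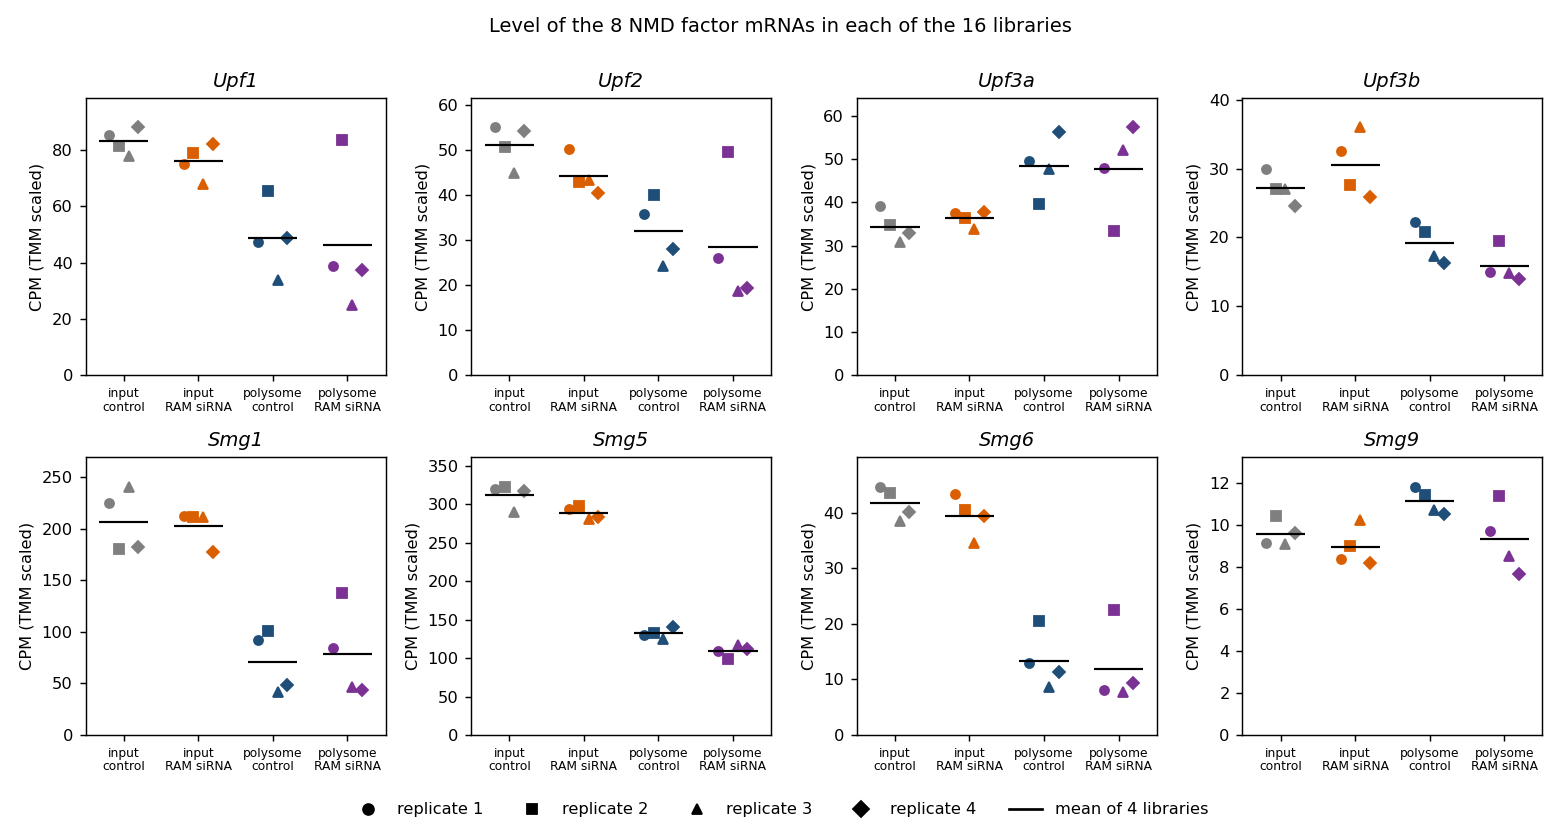
CPM (TMM scaled) of each NMD factor mRNA in the 16 libraries, with input in the left pair of columns and polysomes in the right pair. Marker shape gives the replicate number and the bar is the mean of 4 libraries. Upf1, Upf2, Upf3b, Smg1, Smg5 and Smg6 sit lower in the control polysomes than in the control input without overlap, Upf3a sits higher, and replicate 2 is the highest polysome library for Upf1, Upf2, Smg1 and Smg6 and the lowest for Upf3a in both cell states.

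The comparison of polysomes with input in control cells asks which of these mRNAs are carried on heavy polysomes in proportion to their cytoplasmic level. In the control cells 6 of the 8 mRNAs were lower in polysomes than in input, Upf3a was higher, and Smg9 did not pass the test. With 7 of 8 called by edgeR's quasi-likelihood test (two-sided, Benjamini-Hochberg adjusted p below 0.05), the share must be read against a background of 67.4% of all 12805 genes called, 34.3% lower and 33.1% higher. The members' median log2 ratio was -0.76, against -8e-04 for all genes tested. Ratios are relative to the other mRNAs of each fraction, so a ratio of 1 means the same share of counts in both fractions and not the same number of molecules. These are averages over a culture, in which fewer cells holding an mRNA and less of it per cell cannot be told apart.

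Among the core factors, Upf1 and Upf2 were depleted from polysomes to similar ratios. Upf1 was at 85.2, 81.2, 77.7 and 87.9 CPM in the input control libraries of replicates 1 to 4 and at 47.4, 65.4, 33.7 and 48.8 CPM in their polysomes. Each polysome value was below each input value, with replicate 2 the nearest to its input. The log2 ratio was -0.80 (SE 0.17, adjusted p = 0.00158), a polysome level 0.575 times that of input. Upf2, the adaptor that joins Upf1 to Upf3 proteins, was at 54.9, 50.7, 44.7 and 54.2 CPM in input and at 35.7, 40.0, 24.2 and 28.0 CPM in polysomes, again without overlap (30.4% of all genes were lower without overlap), for a log2 ratio of -0.71 (SE 0.16, adjusted p = 0.00173).

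The paralogues Upf3a and Upf3b, both of which bind Upf2 and of which Upf3b is the stronger activator of decay, lay on opposite sides. Upf3a was at 39.2, 34.8, 30.8 and 32.9 CPM in input and at 49.5, 39.7, 47.8 and 56.4 CPM in polysomes, so that all polysome values were above all input values. Its log2 ratio was 0.46 (SE 0.13, adjusted p = 0.0101), and it was the only member called higher. That call was lost with replicates 1 and 2 alone (0.21, adjusted p = 0.159). Upf3b was at 29.98, 27.1, 27.0 and 24.6 CPM in input and at 22.3, 20.8, 17.3 and 16.3 CPM in polysomes. Here all polysome values were below all input values, and the log2 ratio was -0.54 (SE 0.13, adjusted p = 0.00282).

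The largest depletions were those of the Smg1 kinase and of the decay effectors. Smg1 was at 225.1, 181, 240.7 and 182 CPM in input and fell to 92.3, 100.8, 42.0 and 48.9 CPM in polysomes. Replicates 3 and 4 were lower in polysomes than replicates 1 and 2, and no polysome value reached the input range. The log2 ratio was -1.58 (SE 0.26, adjusted p = 0.000234), with a 95% interval from -2.15 to -1.02. Smg6, the endonuclease, was at 44.6, 43.6, 38.5 and 40.2 CPM in input and at 12.99, 20.4, 8.63 and 11.3 CPM in polysomes, with a log2 ratio of -1.68 (SE 0.22, adjusted p = 4.4e-05), the lowest of the 8. Smg5, which also helps to return Upf1 to its unphosphorylated form, was at 320.4, 322.6, 290 and 317.5 CPM in input and at 129.8, 133.3, 124.8 and 140.8 CPM in polysomes. It was the most even member across replicates, with pair ratios between -1.30 and -1.17 and a fitted log2 ratio of -1.28 (SE 0.11, adjusted p = 2.46e-06).

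Smg9, the Smg1 cofactor and the least abundant of the 8 mRNAs per length in input, was nearly even between the fractions. It was at 9.15, 10.4, 9.09 and 9.62 CPM in input and at 11.8, 11.4, 10.7 and 10.5 CPM in polysomes. The polysome values were higher in 4 of 4 replicates and did not overlap with those of input, as held for 30.7% of all genes in this direction, but the log2 ratio of 0.18 (SE 0.12, 95% interval -0.08 to 0.44) did not pass the test (adjusted p = 0.19). Per length, the order of the mRNAs in control polysomes was Smg5 at 29.7 ± 1.51, Upf3a at 23.5 ± 3.34 and Upf1 at 10.6 ± 2.82 CPM per kb, these 3 without overlap between neighbours. The remaining mRNAs overlapped with the next in order, from Upf3b at 8.18 ± 1.22 to Smg6 at 2.28 ± 0.866 CPM per kb.

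**Figure D2:**
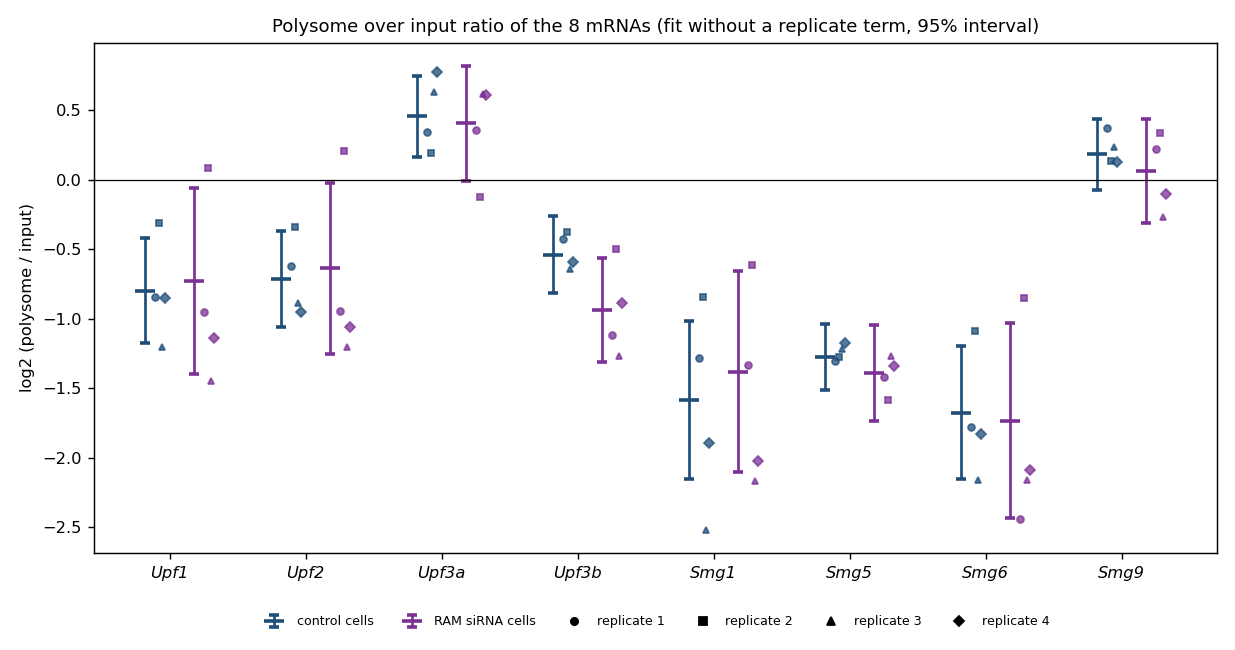
Log2 ratio of polysome to input CPM for each mRNA in control and RAM siRNA cells. Horizontal marks with bars are the fitted ratio and its 95% interval, and small symbols are the 4 replicate pairs. Upf3a and Smg9 lie at or above 0, the others below it, and replicate 2 of the RAM siRNA cells lies nearest to or across 0 for Upf1, Upf2 and Upf3a.

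Polysome loading of an mRNA is tied to its length, so each ratio was set beside those of genes of like coding length. The 12125 protein-coding genes were divided into 10 classes of equal size by coding length. The median log2 ratio in control cells was -0.49 in the shortest class, peaked at 0.48 in class 3 and fell to -0.68 in the longest. Upf2 and Smg9 lay at percentiles 48.0 and 48.3 of their classes and Upf3a at 55.2, all near the middle. Upf1 was at percentile 24.4 and Upf3b at 21.9. Smg1 was at percentile 15.2, Smg6 at 13.1 and Smg5 at 11.4. By length of the whole transcript instead, Smg6 was at percentile 6.7, Smg5 at 10.4, Upf3b at 17.2, Smg1 at 22.8, Upf1 at 25.5, Upf2 at 37.1, Smg9 at 41.9 and Upf3a at 43.6 of their classes, each of the 8 then below the class median. Across genes, Spearman's correlation of the ratio was -0.17 with coding length, -0.33 with the length of the 3′ untranslated region and -0.40 with transcript length, a description over 12125 genes that share the same libraries. Smg1 has the longest 3′ untranslated region of the 8, at 4233 bases, and Smg9 the shortest, at 400, against a median of 995. Smg6 (1498), Upf2 (1261) and Smg5 (1230) lie above that median, and Upf1 (958), Upf3b (834) and Upf3a (719) below it.

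**Figure D3:**
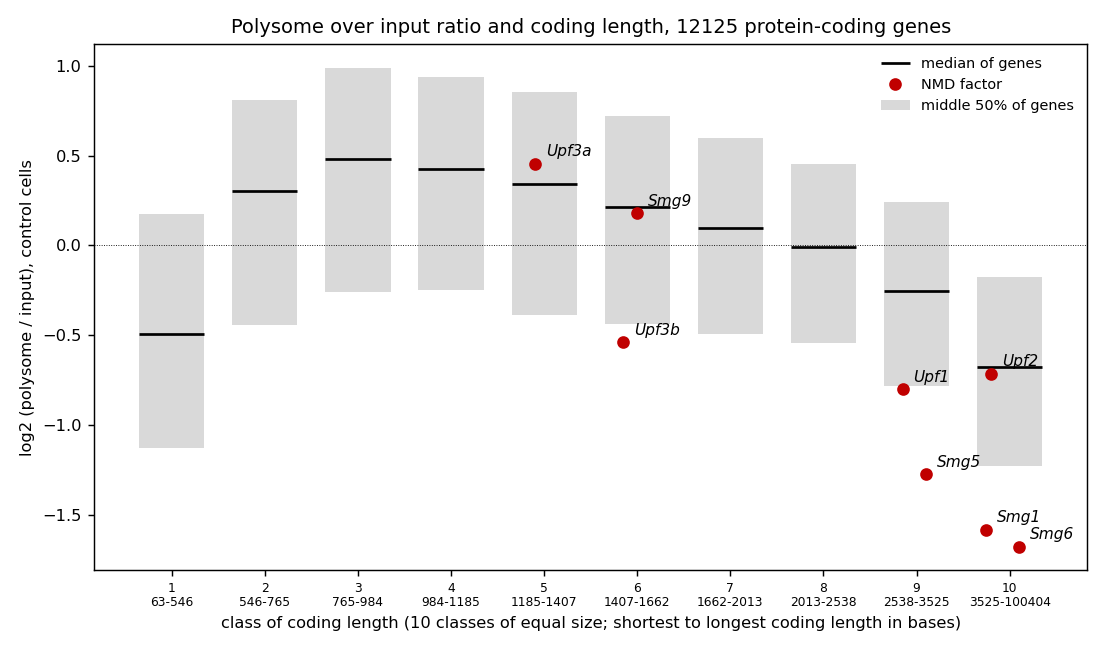
Log2 ratio of polysome to input in control cells against coding length, for 12125 protein-coding genes in 10 classes of equal size. Black lines are class medians, grey boxes the middle 50% of genes, and red points the 8 NMD factors. Upf2, Upf3a and Smg9 sit close to their class medians, and the other 5 below the middle 50% of theirs, Upf1 and Upf3b by a little.

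After RAM siRNA the same ratio was called for 4 of the 8 mRNAs, all lower in polysomes, against 53.3% of all genes called and 25.9% called lower. The called mRNAs were Upf3b (log2 ratio -0.93, SE 0.17, adjusted p = 0.00117), Smg1 (-1.38, SE 0.33, adjusted p = 0.00512), Smg5 (-1.39, SE 0.16, adjusted p = 7.71e-05) and Smg6 (-1.73, SE 0.32, adjusted p = 0.00126). Upf1 at -0.73 (adjusted p = 0.0641), Upf2 at -0.64 (adjusted p = 0.0739), Upf3a at 0.41 (adjusted p = 0.0889) and Smg9 at 0.06 (adjusted p = 0.775) did not pass. The lost calls went with replicate 2. Its log2 ratio was 0.08 for Upf1, where the other pairs lay between -1.45 and -0.95, 0.21 for Upf2, where they lay between -1.20 and -0.95, and -0.12 for Upf3a, where they lay between 0.36 and 0.62.

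Without the replicate 2 polysome library of the RAM siRNA cells, 7 of 8 were called, 6 lower and Upf3a higher, while the share of all genes called also rose, to 67%. The ratios were then -1.18 for Upf1 (adjusted p = 5.98e-05), -1.05 for Upf2 (adjusted p = 8.19e-05) and 0.53 for Upf3a (adjusted p = 0.00332). The same 7 were called with replicates 1, 3 and 4 alone in both fractions (61.4% of all genes called). With the replicate number as a block, 6 were called, all lower (58.8% of all genes called), with Upf1 at -0.86 (adjusted p = 0.0164) and Upf2 at -0.74 (adjusted p = 0.0268). In control cells the count was 7 with replicates 1, 3 and 4 alone (64.3% of all genes called), with the block (72.3% of all genes called) and without it. The difference between both cell states was tested by an interaction term, given further on.

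The comparison of RAM siRNA with control cells in input asks whether the cytoplasmic level of the NMD factor mRNAs depends on RAM. In the fit without a block, 0 of 8 were called against 12.9% of all genes. By this edgeR fit 1 of 8 had an unadjusted p below 0.05, as did 3591 of 12805 genes. DESeq2 called 0 of 8, and 1978 over all genes. The members' median log2 change was -0.09, against 7e-04 for all genes. With the replicate number as a block, Upf1, Upf2 and Smg5 were called lower, 3 of 8, where 39.3% of all genes were called and 19% were called lower.

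These were small decreases that recurred in every replicate, which the fit with the block favours. The share of all genes lower in 4 of 4 replicates was not counted. Upf1 in input RAM siRNA was at 74.9, 78.8, 67.8 and 82.0 CPM, below the control library of the same number in 4 of 4 replicates while the groups overlapped. Its log2 change was -0.13 (SE 0.07, adjusted p = 0.274) without and -0.13 (SE 0.05, adjusted p = 0.0236) with the block. Upf2 was at 50.1, 42.9, 43.2 and 40.4 CPM, and replicate 4 showed the widest gap to its control. It was also lower in 4 of 4, by a log2 change of -0.21 (SE 0.09, adjusted p = 0.135) without and -0.21 (SE 0.06, adjusted p = 0.00506) with the block. Smg5 was at 293.8, 297.5, 281.3 and 283.5 CPM, lower in 4 of 4, with a change of -0.12 (SE 0.07, adjusted p = 0.298) without and -0.11 (SE 0.04, adjusted p = 0.0346) with the block. The control group of Smg5 was spread by replicate 3, whose 290 CPM fell within the RAM siRNA range.

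The other 5 mRNAs were not called in input by either fit. Upf3b was at 32.5, 27.7, 35.96 and 25.9 CPM, above the control of the same number in 4 of 4 replicates, with replicate 3 the furthest. Its log2 change was 0.17 (SE 0.11, adjusted p = 0.358) and, with the block, 0.16 (SE 0.07, adjusted p = 0.0574). Upf3a was at 37.5, 36.4, 33.97 and 37.7 CPM, higher than control in 3 of 4 replicates (log2 change 0.08, SE 0.08). Smg1 was at 212.6, 211.8, 211.6 and 177.3 CPM, within the control range but for replicate 4, and its log2 change was -0.03 (SE 0.11). Smg6 was at 43.5, 40.5, 34.5 and 39.5 CPM, lower in 4 of 4 replicates by small steps (-0.08, SE 0.08), and Smg9 was at 8.35, 8.99, 10.3 and 8.20 CPM, lower in 3 of 4 (-0.10, SE 0.11). The 95% intervals of the 8 mRNAs in the fits without the block ran from -0.40 at the lowest (Upf2) to 0.40 at the highest (Upf3b). With the block they ran from -0.331 (Upf2) to 0.297 (Upf3b).

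In polysomes, 0 of 8 mRNAs were called after RAM siRNA, without (0.0234% of all genes called) or with the block (14.6% called). By edgeR 0 of 8 had an unadjusted p below 0.05 in either fit. Over all 12805 genes 1152 did without and 3610 with the block. DESeq2 called 0 of 8 with 1 at that level, and called 300 of all genes with 1342 at that level. This comparison and the one in input use different libraries, but each shares its libraries with the ratios of polysomes to input above. Smg5 was at 109.7, 99.2, 116.5 and 111.9 CPM in RAM siRNA polysomes, against 124.8 CPM in the lowest control library. It was the only member whose groups did not overlap, as held for 4.38% of all genes in this direction, and its log2 change of -0.22 (SE 0.14, adjusted p = 0.782) did not pass, nor did -0.23 (SE 0.11, adjusted p = 0.201) with the block. Smg9 was at 9.71, 11.4, 8.51 and 7.65 CPM and lower than control in 4 of 4 replicates, with replicate 2 level with its control and a log2 change of -0.21 (SE 0.16, adjusted p = 0.843).

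For Upf1, Upf2, Smg6 and Smg1 in polysomes the spread was wide, with replicate 2 the highest in control and RAM siRNA cells alike. In control cells the ratio of polysomes to input also shifted between replicates over the protein-coding genes, by coding length. Its median in the longest class was -0.448 with replicates 1 and 2 alone and -0.967 with replicates 3 and 4 alone. In the shortest class these medians were -0.858 and -0.197. Smg1 was at -1.13 and -2.22 in these fits and Upf1 at -0.61 and -1.01, whereas Smg5 was at -1.35 and -1.19. The part of this shift in the spread was not tested. After RAM siRNA Upf1 was at 38.8, 83.4, 24.8 and 37.2 CPM, Upf2 at 26.0, 49.5, 18.8 and 19.4 CPM and Smg6 at 8.02, 22.5, 7.71 and 9.31 CPM. In each of these replicate 2 was above its control, while the other replicates were below theirs. Their log2 changes were -0.05 (SE 0.34) for Upf1, -0.13 (SE 0.31) for Upf2 and -0.13 (SE 0.38) for Smg6, and with the replicate block they were -0.14 (SE 0.13), -0.20 (SE 0.13) and -0.19 (SE 0.14). Without the RAM siRNA library of replicate 2 alone, its control kept, they were -0.48, -0.52 and -0.61, and with replicates 1, 3 and 4 alone they were -0.31, -0.39 and -0.33. None of these was called. Smg1 was at 84.6, 138.1, 47.0 and 43.5 CPM, with a log2 change of 0.19 (SE 0.40) that was 0.13 (SE 0.12) with the block, -0.22 without that library and -0.002 with replicates 1, 3 and 4 alone. Upf3a was at 47.9, 33.4, 52.1 and 57.4 CPM (0.03, SE 0.21), its lowest value again in replicate 2.

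**Figure D4:**
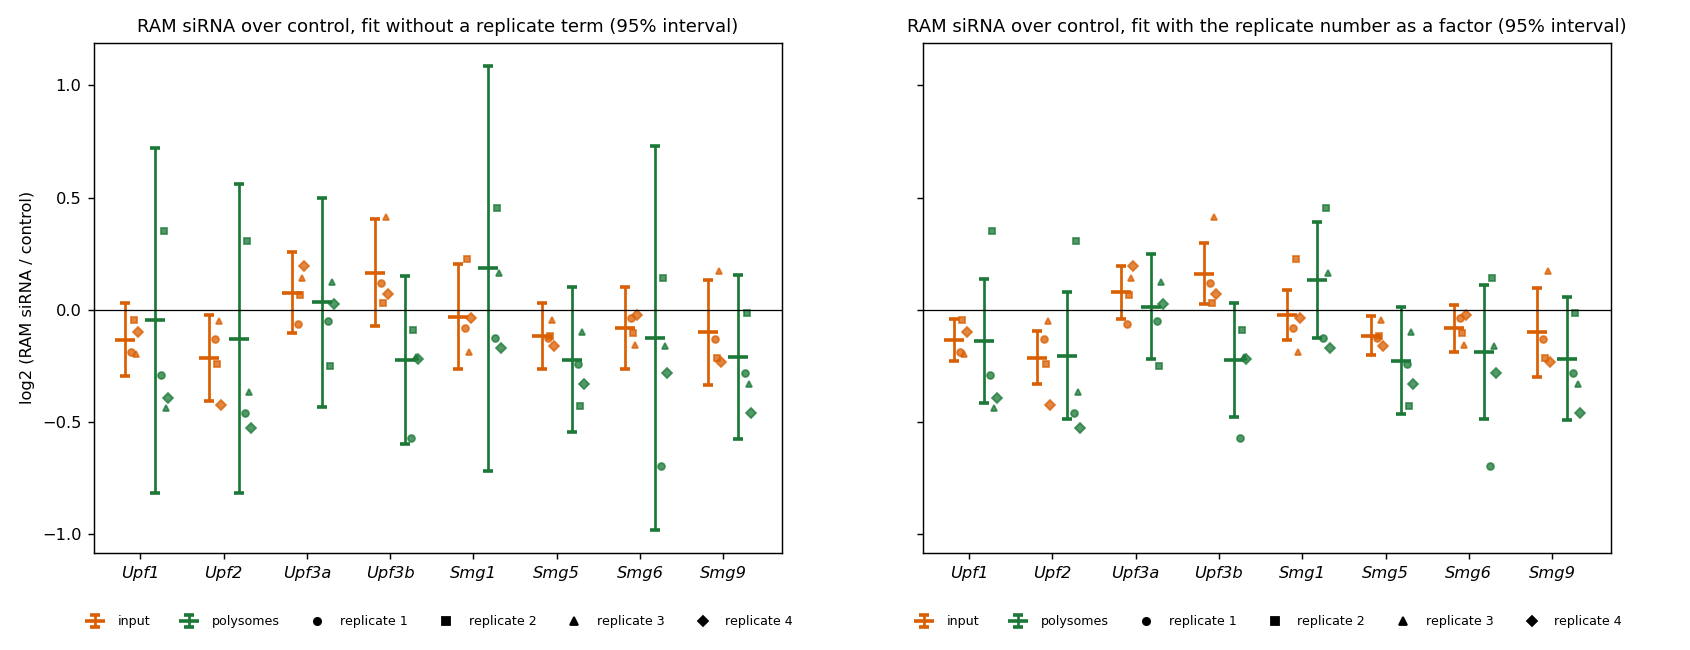
Log2 ratio of RAM siRNA to control in input and in polysomes, fitted without (left) and with (right) the replicate number as a factor. Marks with bars are the fitted change and its 95% interval, and small symbols are the 4 pairs of libraries with the same number. Upf1, Upf2 and Smg5 lie below 0 in input for all 4 pairs, Upf3b lies above 0 in input and below 0 in polysomes, and the polysome intervals are wide for Upf1, Upf2, Smg1 and Smg6.

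Upf3b was the mRNA whose fractions moved apart after RAM siRNA. In RAM siRNA polysomes it was at 15.0, 19.5, 14.9 and 14 CPM, lower than the control of the same number in 4 of 4 replicates, with a log2 change of -0.22 (SE 0.17, adjusted p = 0.827). In input it had been higher in 4 of 4. The difference of both changes, the interaction term, was -0.44 (SE 0.21, 95% interval -0.88 to -0.005, unadjusted p = 0.0477), and it did not pass the adjustment over all genes (adjusted p = 1). With a block within each fraction it was -0.43 (SE 0.13, unadjusted p = 0.00478, adjusted p = 0.685). Over all fits that left out a single library it stayed between -0.56 and -0.30. Only 1.32% of all genes tested had an interaction term as low, but Upf3b was singled out by this same term.

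For the change of loading as a whole, 0 of 8 mRNAs and 0% of all genes were called by edgeR, Upf3b being the only member with an unadjusted p below 0.05. DESeq2 called 0 of 8, with 0 at that level. Over all 12805 genes 100 had such a p by edgeR and 98 by DESeq2. Smg1 at 0.17 (SE 0.46) and Smg6 at -0.09 (SE 0.42) had the widest errors, followed by Upf1 at 0.04 (SE 0.39) and Upf2 at 0.04 (SE 0.35), and Smg5 at -0.16 (SE 0.15) had the narrowest. The 95% interval ran from -0.47 to 0.15 for Smg5 and from -0.81 to 1.15 for Smg1. With a block within each fraction it narrowed to -0.40 to 0.07 for Smg5 and to -0.19 to 0.40 for Smg1.

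The balance of the Upf3 paralogues was followed as the ratio of Upf3a to Upf3b counts within each library, which needs no scaling between libraries. The ratio was 1.31, 1.28, 1.14 and 1.34 in input control, and 2.22, 1.91, 2.77 and 3.46 in control polysomes, so that every polysome ratio exceeded every input ratio. After RAM siRNA it was 1.15, 1.31, 0.945 and 1.46 in input and 3.19, 1.71, 3.49 and 4.10 in polysomes. The mean in input was 1.27 ± 0.0868 in control and 1.22 ± 0.220 after RAM siRNA (SD, n = 4, exact permutation test, two-sided, p = 0.686). In polysomes it was 2.59 ± 0.680 and 3.12 ± 1.01 (exact permutation test, two-sided, p = 0.486), where the smallest p that 4 against 4 libraries allow is 0.0286. The polysome ratio was higher after RAM siRNA in 3 of 4 replicates, replicate 2 being the exception, and the groups overlapped in both fractions.

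**Figure D5:**
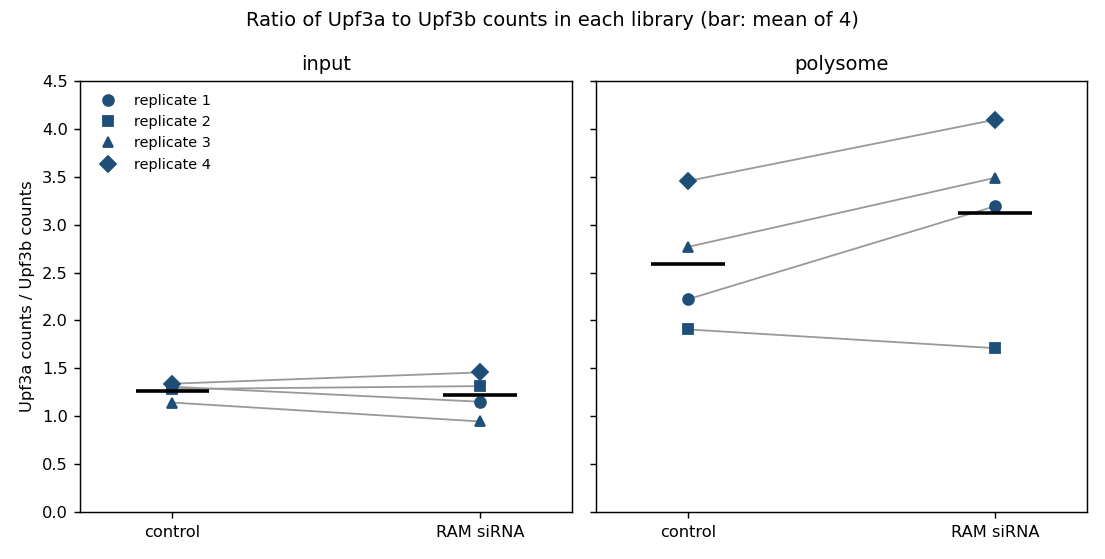
Ratio of Upf3a to Upf3b counts in each library, with lines that join the control and RAM siRNA libraries of the same replicate number and bars for the mean of 4. All polysome ratios lie above 1.7 and all input ratios below 1.5, and the control and RAM siRNA groups overlap within each fraction.

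Genes that work with the 8 factors spread to either side in control polysomes. Of 16 other NMD factors, among them Smg8, release factors and the chaperones of Smg1, 4 were lower and 10 higher in control polysomes than in input, with a median log2 ratio of 0.36, where 34.3% of all genes were lower and 33.1% higher. The lowest p among those higher was that of Ruvbl1, a chaperone ATPase, at 1.14 (SE 0.12, adjusted p = 1.1e-05). Of 9 exon junction complex genes 2 were lower, led by Pnn at -1.04, and 2 higher, led by the helicase Eif4a3 at 1.27 (adjusted p = 4.06e-06). Of 13 transcripts known as NMD substrates 8 were lower, led by the noncoding host RNA Gas5 at -3.59 (adjusted p = 8.94e-09), and 1 higher, the stress transcription factor Atf4 at 0.43 (adjusted p = 0.00782). Snhg1, Snhg5, Snhg8 and Snhg12 in this list are noncoding host RNAs too. From control input to control polysomes their mean CPM went from 188.7 to 17.15, 149 to 14.6, 26.19 to 2.153 and 52.15 to 4.528. Noncoding and coding substrates were not counted apart, so the count is not one of mRNAs alone. After RAM siRNA the counts lower and higher were 3 and 7 for the other factors, against 25.9% and 27.3% of all genes, with Ruvbl1 at 1.11 again in the lead of those higher. They were 1 and 2 for the exon junction complex, with Pnn at -1.09 and Eif4a3 at 1.19, and 7 and 0 for the substrates, led by the noncoding RNA Snhg12 at -3.53.

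Between RAM siRNA and control in input, 2 of 16 other NMD factors and 2 of 9 exon junction complex genes had an unadjusted p below 0.05 (edgeR). Over all 12805 genes 3591 did. By edgeR 0 of 16 and 0 of 9 were called, and DESeq2 called 0 of each. With the block these rose to 2 lower and 4 higher, the lower led by Ruvbl1 at -0.25 (adjusted p = 0.000413), and to 2 lower, led by Magoh at -0.19 (adjusted p = 0.00252), where 19% of all genes were lower and 20.3% higher. Of the 13 known substrates, Gadd45a, a stress-induced growth arrest gene, was lower in input at -0.53 (adjusted p = 0.000535) and Tbl2 higher at 0.42 (adjusted p = 0.0146), against 5.94% and 6.95% of all genes, and with the block 4 were lower and 3 higher, so the list moved to both sides. In polysomes 0 genes of the 3 lists were called by edgeR and 0 by DESeq2. By edgeR 1 substrate had an unadjusted p below 0.05, against 1152 of 12805 genes. With the block Gadd45a at -0.58 (adjusted p = 0.00269) and Atf4 at -0.36 (adjusted p = 0.0441) were lower and Tbl2 at 0.45 (adjusted p = 0.0171) was higher, against 4.97% and 9.68% of all genes. The change of loading was called for 0 genes of the 3 lists by edgeR, with 0 at an unadjusted p below 0.05, and 0 by DESeq2.

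For each factor the gene with the most similar profile was taken as that with the highest Pearson correlation of log2 CPM over the 16 libraries among 9127 genes. These were Ap1b1 for Upf1 (r = 0.992), Kif4 for Upf2 (0.981), Bnip3l for Upf3a (0.973), Prpf38b for Upf3b (0.967), Arid4b for Smg1 (0.993), Sbk1 for Smg5 (0.992), Znfx1 for Smg6 (0.993) and Klf5 for Smg9 (0.888). The 16 points span both fractions, so each r includes the step from input to polysomes, and likeness within a fraction was not computed. Smg1, Smg5 and Smg6 had 1124, 1073 and 1168 genes above an r of 0.9, whereas Smg9, the mRNA nearly even between the fractions, had 0.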

How the data were processed

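The deposited table held raw counts per gene for the 16 libraries. The authors made stranded, ribosomal RNA-depleted libraries (TruSeq), aligned reads to mm10 (GRCm38) with STAR 2.5.1b and counted them with HTSeq, and edgeR is also named in their processing notes. The strand setting and annotation release used for counting are not given in the sources used here. Libraries held 16647523 to 20147833 counts, and the lowest count of any of the 8 genes in a library was 129. Gene names came from GENCODE M21, in which 12777 of the 12805 genes tested were found, 495 of the 46983 identifiers of the table having no symbol.

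Genes that reached 1 CPM in 10 or more libraries of the 16 were tested with the edgeR 4.0.16 quasi-likelihood test (R 4.3.3, TMM scaling, two-sided), with p-values adjusted by Benjamini-Hochberg over 12805 genes and a threshold of 0.05. Each comparison of 2 groups was fitted on its 8 libraries, and the interaction term on all 16. DESeq2 1.42.0, other scalings, no filter, subsets of replicates and leaving out each library were the alternatives. Only edgeR and DESeq2, with and without the replicate block, were tried on simulated data, with TMM scaling for edgeR and all 16 libraries. The other alternatives were not simulated. The subset of replicates 1, 3 and 4 was chosen after seeing the data. The main transcript was the principal protein-coding transcript of the basic annotation. Coverage along transcripts, isoforms and protein levels were not analysed here. Figures were drawn with matplotlib 3.10.9.

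The members and gene lists were chosen with earlier results of these data known. All 8 members, Ramac, the gene of each list with the smallest p in each direction and the nearest gene by correlation are named. A gene of the list of other NMD factors is counted in its list but not reported here by name. Atf4 in the polysome comparison was named after its values were seen. The study describes the replicates as biological replicates from 4 separate occasions, which the labels do not state. No 2 libraries of a group were alike within sampling noise, the chi-square per gene running from 4.57 to 29.6 in input and from 22.6 to 306 in polysomes. Replicate numbers recur in the labels of all groups. Between control and RAM siRNA libraries of the same number, deviations from the group mean correlated over 9140 genes, on average at 0.62 for input and 0.838 for polysomes, and every pair in every comparison lay above 0.1, from 0.234 to 0.942. Both libraries of a pair correlated best with each other, except in pair 1 of RAM siRNA against control in polysomes (r = 0.627). The numbers were therefore taken to pair the libraries, and the fit with the replicate block is given where it changed a call or a count.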

Additional observations from a re-analysis of the deposited data

Results flagged for a closer look

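In 3 of the 32 groups of 4 libraries tested, 2 of them in input, a single library stood apart, as measured by its gap to the nearest other library over the range of the group, against Dixon's critical value. Chance flags about 1 in 20 groups. Smg1 was lowest in replicate 4 of the input RAM siRNA libraries, with a gap of 0.972 of the range. Smg5 was lowest in replicate 3 of the input control libraries, with a gap of 0.844. Smg6 was highest in replicate 2 of the RAM siRNA polysomes, with a gap of 0.892, the library that also carried the highest Upf1, Upf2 and Smg1 of its group.

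The fitted changes of Upf3b after RAM siRNA had opposite signs in the fractions, though neither was called. Pairs were up in 4 of 4 replicates of input and down in 4 of 4 of polysomes. The change in polysomes minus that in input was -0.441 on the log2 scale, and the interaction test of edgeR did not pass (adjusted p = 1).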

How the results depend on the processing

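The replicate block raised the members called in input after RAM siRNA from 0 to 3, and changed no call among the 8 beyond those given in the report. In RAM siRNA cells the members called between polysomes and input, 4 in all libraries, were 2 with replicates 1 and 2 alone, 7 with replicates 3 and 4 alone, 7 with replicates 1, 3 and 4 alone, and 4 to 7 when single libraries were left out. Over all 12805 genes the calls in the same order were 6823, 5281, 6386, 7857 and 5591 to 8584. The other counts outside those left-out libraries lay within 1.5 times the value reported. Of the members' single values outside the left-out libraries 291 kept direction and side of the threshold, 14 gained and 3 lost a call, and 20 changed sign.

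With replicates 1 and 2 alone the RAM siRNA change turned to -0.002 for Upf3a and 0.063 for Smg1 in input and to -0.1 for Upf3a, 0.145 for Upf1 and 0.029 for Upf2 in polysomes, and the interaction term of Smg9 to 0.089. Upf3a in polysomes was -0.017 with library size scaling and -0.024 without the filter, and Smg1 there was -0.002 with replicates 1, 3 and 4. The polysome to input ratio of Smg9 in RAM siRNA cells was -0.061 with library size scaling, -0.191 with replicates 3 and 4 and -0.03 with replicates 1, 3 and 4. The interaction term was -0.004 for Upf1 and -0.005 for Upf2 with the replicate block, -0.049 and -0.033 with the block within fractions, -0.268 and -0.208 with replicates 3 and 4, and -0.209 and -0.252 with replicates 1, 3 and 4. The cause was not tested.

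When single libraries were left out, the change in input ran from -0.09 to 0.051 for Smg1. In polysomes it ran from -0.483 to 0.142 for Upf1, from -0.519 to 0.005 for Upf2, from -0.086 to 0.179 for Upf3a, from -0.221 to 0.398 for Smg1 and from -0.613 to 0.155 for Smg6. The ratio of Smg9 in RAM siRNA cells ran from -0.054 to 0.138. The interaction term ran from -0.411 to 0.251 for Upf1, from -0.369 to 0.196 for Upf2, from -0.199 to 0.039 for Upf3a, from -0.257 to 0.385 for Smg1 and from -0.6 to 0.193 for Smg6, and the log2 change of the Upf3a to Upf3b ratio in input from -0.168 to 0.041.

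Over all genes, RAM siRNA calls in input went from 1651 to 5028 with the block and 2629, 0 and 489 with replicates 1 and 2, 3 and 4, and 1, 3 and 4, with 913 to 2506 when single libraries were left out. In polysomes they went from 3 to 1875 with the block, 300 with DESeq2 and 32 without the filter, and to 0 to 48 when single libraries were left out, the highest without RAM siRNA replicate 2. Among the 13 known substrates in input, DESeq2 called 3 lower and 2 higher, where it called 911 of 12805 genes lower and 1067 higher. Dropping the filter moved the median gene's ratio of polysomes to input by 0.137 in control and 0.125 in RAM siRNA cells, and library size scaling by -0.119 in the latter. Changes in polysomes had SEs of 0.14 to 0.40 for the 8 members, and 0.11 to 0.14 with the replicate block.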
